A study of Mus musculus with 4 samples.

Results

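Prox1, Lyve1, Flt4, Vegfc, Mmrn1 and Reln are genes of the lymphatic endothelium, the cell layer that lines lymph vessels. They were taken by gene symbol and not by a measured value, though earlier results of these data were known. They are 6 of the 45706 genes in the count table. RNA was measured by sequencing of polyadenylated transcripts from the left lung lobe of C57BL/6 mouse embryos at embryonic day (E) 17. One group held 2 wild-type lungs (wt_1 and wt_2), and the other held 2 lungs homozygous for Myh10L458R (mut_1 and mut_2). Myh10 encodes the heavy chain of nonmuscle myosin II-B, a motor that pulls on actin filaments. The mutation is a missense change induced with the mutagen ENU and is carried in all cells of the embryo, and no sample was treated. Each lung came from a separate mouse, litters were not given, and n = 2 in each group throughout.

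Lymphatic endothelial cells arise from veins when the transcription factor PROX1 is switched on. The growth factor VEGF-C, encoded by Vegfc and made largely by surrounding cells, binds the receptor VEGFR-3, encoded by Flt4, and directs these cells to sprout and survive. LYVE1 is a hyaluronan receptor on their surface, multimerin 1 (Mmrn1) is a glycoprotein they secrete, and reelin (Reln) is a secreted glycoprotein of collecting lymph vessels. In the lung, lymph vessels run along airways and larger vessels and clear fluid from the tissue before birth. None of the genes is restricted to lymphatic endothelium: Lyve1 is also found in some tissue macrophages, Mmrn1 in megakaryocytes and platelets, and Prox1 in heart muscle, liver and neuroendocrine cells. These examples are not complete. The share of each gene's reads that came from lymph vessels, blood vessels or other cells was not measured.

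The lungs had between 19116971 and 32055306 counted reads, so 1 CPM, a count of 1 in 1000000 reads and the unit of level used here, stood for 19.05 to 32.2 reads. The lung marker Nkx2-1 was at 434 to 455 CPM. The surfactant gene Sftpc of alveolar type 2 cells was at 5812 and 5628 CPM in wild-type and 3874 and 4748 CPM in mutant lungs, lower in both mutants (log2 fold change -0.41, SE 0.14, adjusted p = 0.173, edgeR). Myh10 itself was at 505 and 504 CPM in wild-type and 539 and 513 CPM in mutant lungs, and a single-base change does not let counts tell the genotypes apart. Each genotype had 1 lung with Xist (wt_1 and mut_2, at 3914 and 4455 CPM) and 1 with the Y-linked Ddx3y (wt_2 and mut_1, at 181 and 198 CPM), so this difference between lungs crossed the genotypes.

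RefSeq start sites could be matched for 5 of the 6 genes (all but Lyve1), and the 250 bases before them differed widely in CpG dinucleotides. The ligand and its receptor are shown with the gene that had the fewest, 5′ to 3′ on the strand of each gene, with CpG in capitals. No effect of these bases on transcript level was tested.
Vegfc: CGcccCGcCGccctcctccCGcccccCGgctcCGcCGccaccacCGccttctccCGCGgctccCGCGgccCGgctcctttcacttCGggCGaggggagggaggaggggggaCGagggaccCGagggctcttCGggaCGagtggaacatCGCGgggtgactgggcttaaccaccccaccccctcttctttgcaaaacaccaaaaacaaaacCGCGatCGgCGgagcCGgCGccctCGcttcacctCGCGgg
Flt4: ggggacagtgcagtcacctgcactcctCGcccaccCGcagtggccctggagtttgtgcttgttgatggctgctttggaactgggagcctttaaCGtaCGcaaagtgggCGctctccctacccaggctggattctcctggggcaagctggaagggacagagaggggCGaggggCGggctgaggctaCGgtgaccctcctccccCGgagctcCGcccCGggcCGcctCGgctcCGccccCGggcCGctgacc
Mmrn1: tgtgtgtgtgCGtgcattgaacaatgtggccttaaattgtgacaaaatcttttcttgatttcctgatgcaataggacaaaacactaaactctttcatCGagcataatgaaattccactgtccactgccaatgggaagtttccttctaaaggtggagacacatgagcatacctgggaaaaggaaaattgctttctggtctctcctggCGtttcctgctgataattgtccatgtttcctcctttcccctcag
On GRCm38.p6 these are chr8:54077282-54077531 (+), chr11:49609429-49609678 (+) and chr6:60944067-60944316 (+). The Flt4 and Mmrn1 windows lie inside the longer GENCODE gene and outside its exons. In GENCODE, Flt4 starts at 49609263, close to its window, but Mmrn1 starts at 60924976, far from its window. The CpG count of the Mmrn1 window therefore does not describe the bases before the GENCODE start. The Vegfc window held 30 CpG, the Flt4 window 16 and the Mmrn1 window 3, against a median of 6 over 32851 such windows in the genome. A window of Reln held 37, and the 2 start sites of Prox1 had 20 and 11. The motif GGGCGG, read on both strands, occurred 2 times before Vegfc, 3 times before Flt4 and in no place before Mmrn1, and 32.7% of all windows held it.

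The levels of all 6 lymphatic endothelial genes overlapped between mutant and wild-type lungs, and no change was detected in any of them. All 6 had enough reads to be tested, and 0 passed an adjusted p of 0.05 in the quasi-likelihood test of edgeR. Of all 18763 tested genes 1.64% passed, so 0 of 6 lies close to that share and does not show that the levels were equal. At an unadjusted p of 0.05 the count was also 0, against 16.5% of all genes. With DESeq2 it was 0 too, both unadjusted and among the 3 genes (Lyve1, Flt4 and Mmrn1) for which that tool gave an adjusted p. The log2 fold changes, mutant over wild type, ran from -0.02 for Prox1 to 0.09 for Reln with a median of 0.06, and the median of all tested genes was 0.00. Between 8.29% (Flt4) and 39.7% (Reln) of all tested genes had a smaller absolute fold change. In none of the 6 did the levels of the 2 genotypes separate, whereas they did in 48.3% of all tested genes. In whole-lung RNA, fewer cells of a type and less RNA per cell cannot be told apart.

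**Figure D1:**
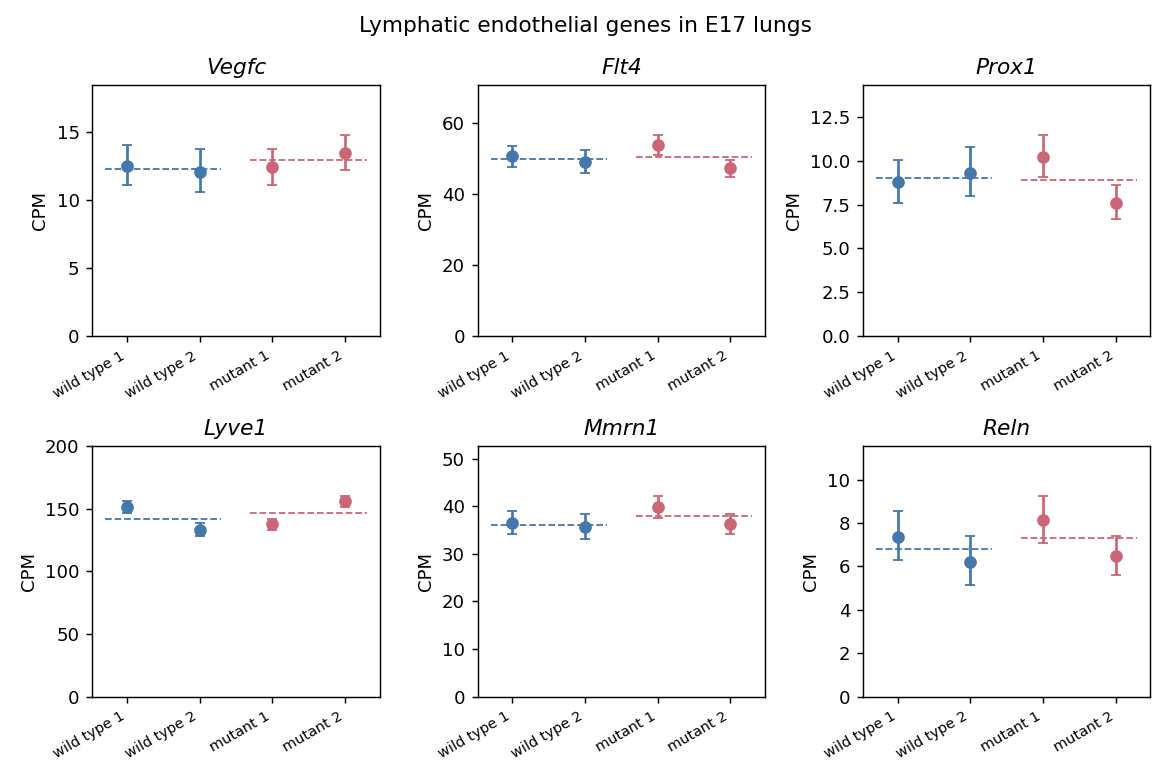
Level of each lymphatic endothelial gene in the 4 lungs, in CPM on an axis of its own starting at 0. Points are single lungs, bars their exact Poisson 95% intervals (counting error only) and dashed lines the group means (n = 2), and in each of the 6 panels the ranges of wild-type and mutant lungs overlap.

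The ligand gene Vegfc (ENSMUSG00000031520, chr8:54077606-54187096, +, GRCm38) was counted 287 and 230 times in wild-type and 345 and 433 times in mutant lungs. These were 12.5 and 12.1 CPM in wt_1 and wt_2, and 12.4 and 13.4 CPM in mut_1 and mut_2. The highest value was in mut_2, the other mutant lung lay between the wild-type lungs, and all 4 were within 1.11-fold of each other. Mean levels were 12.3 ± 0.318 CPM in wild type and 12.9 ± 0.745 CPM in mutants (SD, n = 2). The fold change was 1.05 (log2 0.07, SE 0.10), with a 95% interval of the fit from 0.909 to 1.22 and an adjusted p of 0.764 (edgeR).

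Its receptor gene Flt4 (ENSMUSG00000020357, chr11:49609263-49652739, +) was at 50.6 and 49.1 CPM in wt_1 and wt_2, and at 53.7 and 47.2 CPM in mut_1 and mut_2. The mutant lungs held both the highest and the lowest value and enclosed the wild-type pair. The group means were 49.8 ± 1.05 and 50.5 ± 4.65 CPM (SD, n = 2), a fold change of 1.01 with an interval from 0.894 to 1.15 (adjusted p = 0.945, edgeR).

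Prox1 (ENSMUSG00000010175, chr1:190118035-190170714, -), the transcription factor that sets lymphatic identity, was one of the genes with fewest reads, at 201, 177, 284 and 245. Its level was 8.77 and 9.29 CPM in wt_1 and wt_2, and 10.2 and 7.61 CPM in mut_1 and mut_2. As for Flt4, the highest and the lowest lung were both mutants. They differed by 1.34-fold, and their exact Poisson 95% intervals of 9.05 to 11.5 and 6.69 to 8.62 CPM, which cover counting error only, did not overlap. The wild-type pair differed by 1.06-fold. Group means were 9.03 ± 0.368 and 8.91 ± 1.83 CPM (SD, n = 2). The fold change was 0.983 (log2 -0.02, SE 0.14), with an interval from 0.791 to 1.22 and an adjusted p of 0.957 (edgeR). Without mut_2 its log2 fold change was 0.18, and without mut_1 -0.24, and neither passed the test.

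Lyve1 (ENSMUSG00000030787, chr7:110850607-110863239, -), the surface receptor, was the most highly counted of the 6, with 2534 to 5020 reads per lung. It was at 151 and 133 CPM in wt_1 and wt_2, and at 138 and 156 CPM in mut_1 and mut_2. Each genotype had 1 high and 1 low lung, and the lungs differed by 1.14-fold within wild type and 1.13-fold within mutants. The mean was 142 ± 12.9 CPM in wild type and 147 ± 12.9 CPM in mutants (SD, n = 2). This gave a fold change of 1.03, an interval from 0.927 to 1.15 and an adjusted p of 0.803 (edgeR). The 2 high lungs, wt_1 and mut_2, were the ones with Xist, an order shared by 12.4% of all tested genes, and any part of embryo sex in it was not tested. Among lungs alike in Xist, mutant over wild type was 0.04 (with Xist) and 0.05 (without) on the log2 scale. The same pairs gave 0.10 and 0.04 for Vegfc. They differed in sign for the rest: -0.20 and 0.14 for Prox1, -0.10 and 0.13 for Flt4, -0.01 and 0.16 for Mmrn1, and -0.19 and 0.39 for Reln.

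The secreted glycoprotein gene Mmrn1 (ENSMUSG00000054641, chr6:60924976-60989378, +) was at 36.5 and 35.7 CPM in wt_1 and wt_2, and at 39.8 and 36.2 CPM in mut_1 and mut_2. The mutant lung mut_1 stood above the rest, and mut_2 lay between the wild-type lungs. Its means were 36.1 ± 0.584 and 38.0 ± 2.54 CPM (SD, n = 2), and the fold change of 1.05 had an interval from 0.932 to 1.19 (adjusted p = 0.705, edgeR). Reln (ENSMUSG00000042453, chr5:21884454-22344702, -) was at 7.37 and 6.19 CPM in wt_1 and wt_2, and at 8.12 and 6.46 CPM in mut_1 and mut_2. The wild-type and mutant ranges of Reln overlapped, and each genotype had a lung above 7 and one below. The means were 6.78 ± 0.834 and 7.29 ± 1.17 CPM (SD, n = 2). Reln had the widest interval of the 6, from 0.846 to 1.34 around a fold change of 1.07 (adjusted p = 0.817, edgeR), and only 118 to 226 reads per lung.

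Few reads of these genes could have come from other genes. Of the 75-base windows of each gene's longest transcript, none was found in another gene for Lyve1, Vegfc and Mmrn1, and 0.0971% were for Flt4. For Prox1 and Reln the share was 0.753% and 0.877%, all from an antisense gene on the opposite strand, Prox1os and Gm10475. Those antisense genes had at most 2 and 1 reads in any lung. Whether strand was used in counting was not stated.

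Levels of different genes were compared per kilobase, over all annotated exon bases of a gene. By this measure Lyve1 stood far above the rest at a median of 49.5 CPM per kb over the 4 lungs (range 45.6 to 53.4), higher than 95.7% of tested genes. Mmrn1 followed at 6.20 (6.08 to 6.78) and Flt4 at 6.05 (5.73 to 6.53), with overlapping ranges, and next was Vegfc at 5.09 (4.93 to 5.49). Lowest were Prox1 at 1.08 (0.907 to 1.22) and Reln at 0.291 (0.261 to 0.342), which lay above 27.2% and 12.6% of tested genes. The order of the medians was thus the surface receptor, then multimerin 1 and the VEGF-C receptor, which could not be ranked, then the ligand, the transcription factor and reelin. Apart from Mmrn1 and Flt4, the ranges of neighbours in this order did not overlap. The values depend on the length used. Over the longest annotated transcript, a measure chosen after seeing the data, with 11699 in place of 23738 bases for Reln, the median level of Reln was 0.591 CPM per kb and those of Mmrn1 and Flt4 were 8.12 and 7.97, in the same order.

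**Figure D2:**
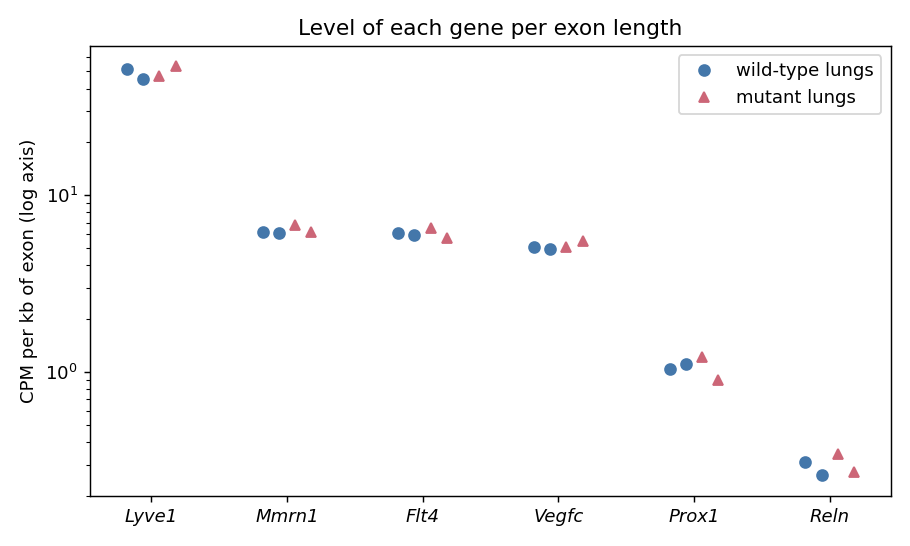
Level of the 6 lymphatic endothelial genes in CPM per kilobase of exon, on a log axis, with 1 point for each of the 4 lungs. Lyve1 lies near 49.5 and Reln near 0.291, and the points of Mmrn1 and Flt4 overlap.

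To set these genes against endothelium as a whole, 20 genes taken as general endothelial markers were summed. How far each is expressed in blood or in lymph vessels was not measured. The pan-endothelial sum was 3324 and 3292 CPM in wild-type and 3108 and 3085 CPM in mutant lungs, and 16 of its 20 genes had a log2 fold change below 0, with a median of -0.11, while 50.5% of all tested genes were above 0. One gene of this list fell (1.34% of all tested genes did), Cldn5, a claudin of endothelial tight junctions (116 and 123 against 87.4 and 101 CPM, log2 fold change -0.34, SE 0.07, adjusted p = 0.0379, edgeR). One rose (0.298% of all did), Ptprb, the vascular endothelial protein tyrosine phosphatase (210 and 202 against 250 and 243 CPM, log2 fold change 0.26, SE 0.05, adjusted p = 0.0196, edgeR). Without wt_2 neither passed (adjusted p = 0.0936 and 0.205). The junction genes Pecam1 and Cdh5 had log2 fold changes of -0.15 and -0.09 and did not pass (adjusted p = 0.157 and 0.455). Of the 20 genes, 10 had an unadjusted p under 0.05 (edgeR), against 16.5% of all tested genes. Both mutant lungs were below both wild-type lungs in 11 and above them in 3, where 24.3% and 23.9% of all tested genes were.

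Relative to that sum, the 6 lymphatic endothelial genes together amounted to 8.03% and 7.45% in wt_1 and wt_2, and 8.43% and 8.65% in mut_1 and mut_2. Both mutant lungs were above both wild-type lungs by this measure, while the 6 genes summed without it were at 267 and 245 against 262 and 267 CPM and overlapped. Of these sums, Lyve1 alone held 151 and 133 against 138 and 156 CPM. Of the single genes, Flt4, Vegfc and Mmrn1 were higher in both mutant lungs relative to the sum, and Prox1, Lyve1 and Reln overlapped. For Mmrn1 the shares were 1.10% and 1.08% in wild-type and 1.28% and 1.17% in mutant lungs. The same held for 44.2% of all tested genes, since the denominator was lower in both mutants, so 3 of 6 lay close to the background. These shares were not tested.

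A list of 12 tested genes held the other ligand, receptors and processing proteins of the VEGF-C axis, matrix and integrin genes, and the adrenomedullin ligand and receptor genes Adm, Calcrl and Ramp2, which also act in lymph vessels. One fell and one rose, where 1.34% and 0.298% of all tested genes did, and the median log2 fold change was -0.04. The one that fell was Itga9, the integrin alpha 9 subunit needed for lymphatic valves, at 141 and 133 CPM in wild-type and 111 and 117 CPM in mutant lungs. Its log2 fold change was -0.27 (SE 0.05, adjusted p = 0.0336, edgeR), and without wt_1 it did not pass (adjusted p = 0.239). The one that rose was Svep1, a large extracellular matrix protein needed for lymph vessel development, at 129 and 119 against 158 and 145 CPM. Its log2 fold change was 0.29 (SE 0.06, adjusted p = 0.0343, edgeR), and without wt_2 it did not pass (adjusted p = 0.211). In both genes the mutant lungs lay apart from the wild-type lungs on one side.

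The remaining genes named for this axis did not pass the test at the adjusted threshold. Of all 12 genes in the list, Itga9 and Svep1 included, 9 had an unadjusted p under 0.05 (edgeR), against 16.5% of all tested genes. Figf, which encodes VEGF-D, the other ligand of VEGFR-3, was at 147 and 138 against 155 and 160 CPM (log2 fold change 0.14, SE 0.05, adjusted p = 0.191, edgeR). Adamts3, the protease that activates VEGF-C, was at 9.25 and 7.72 against 11.1 and 10.2 CPM (log2 fold change 0.32, SE 0.12, adjusted p = 0.216, edgeR), and its cofactor Ccbe1 at 30.1 and 27.5 against 32.2 and 32.0 CPM (0.15, SE 0.08, adjusted p = 0.334). All 3 had both mutant lungs above both wild-type lungs, as 23.9% of tested genes did. The receptor gene Kdr and the co-receptor gene Nrp2 lay the other way, with log2 fold changes of -0.10 and -0.18 (adjusted p = 0.299 and 0.127). Across the list of 12, 6 genes were lower and 4 higher in both mutant lungs, where 24.3% and 23.9% of all tested genes were.

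Of 10 further transcription factors of lymphatic development, none rose or fell in the edgeR test, and 2 had an unadjusted p under 0.05, as 16.5% of all tested genes did. These were Gata2, which acts in lymphatic valves, at 25.7 and 25.2 against 20.0 and 21.3 CPM (log2 fold change -0.30, SE 0.07, adjusted p = 0.0683), and Foxc2, also a valve factor. Foxc2 was scarce, at 0.742 and 0.840 against 1.47 and 1.34 CPM (log2 fold change 0.83, SE 0.31, adjusted p = 0.199). Gata2 lay lower and Foxc2 higher in both mutant lungs. Gata2 passed with the replicate number as a block (adjusted p = 0.0350), with no filter on low counts (0.0302) and without mut_2 (0.0176). Nr2f2 and Sox18, the factors upstream of Prox1 in veins, had log2 fold changes of 0.06 and -0.02 (adjusted p = 0.631 and 0.912), the first at 187 to 213 CPM and the second at 45.9 to 50.2 CPM over the 4 lungs.

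Among 25 tested surface, junction and valve genes, 2 fell and 2 rose, beside 1.34% and 0.298% of all tested genes. Their median log2 fold change was -0.03, and 9 had an unadjusted p under 0.05 (edgeR), against 16.5% of all tested genes. Stab2, a scavenger receptor that binds hyaluronan as LYVE1 does, was at 21.2 and 20.2 CPM in wild-type and 32.2 and 27.9 CPM in mutant lungs. It had a log2 fold change of 0.53 (SE 0.08, adjusted p = 0.0118, edgeR) and passed under all 14 alternative settings. Klhl4 was at 35.2 and 39.6 against 48.0 and 47.7 CPM (log2 fold change 0.36, SE 0.08, adjusted p = 0.0493, edgeR) and lost its call in 5 of 13 alternatives, without wt_1 (0.200) and without mut_1 (0.0617) among them. Both had all mutant lungs above all wild-type lungs.

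The 2 genes of that list that fell are widely expressed outside lymph vessels. Which cells of the lung held the called genes Itga9, Svep1, Stab2 and Klhl4 was not measured either. Pdpn, podoplanin, which also marks alveolar type 1 cells, was at 77.2 and 78.1 CPM in wild-type and 56.5 and 63.3 CPM in mutant lungs (log2 fold change -0.37, SE 0.07, adjusted p = 0.0293, edgeR). Gja1, the gap junction protein connexin 43, was at 231 and 221 against 183 and 194 CPM (log2 fold change -0.26, SE 0.05, adjusted p = 0.0249, edgeR). Without wt_1 neither passed (adjusted p = 0.0538 and 0.147), and the list then had 1 call. Gja1 also did not pass without wt_2 (0.0514). The chemokine gene Ccl21a, at 12.5 and 11.2 against 11.1 and 10.9 CPM, did not pass (adjusted p = 0.631), and 61.3% of its windows were shared with near-identical copies, so its level is uncertain.

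Together the 3 lists had 47 tested genes, of which 3 fell and 3 rose, and 25 lay below and 22 above a log2 fold change of 0. Both mutant lungs were below both wild-type lungs in 16 and above them in 13, where 24.3% and 23.9% of all tested genes were. Kdr, Ramp2, Tek and Tie1 of these lists are also in the pan-endothelial list, and Maf is in the macrophage list. The rest did not pass an adjusted p of 0.05. An unadjusted p under 0.05 (edgeR) was found in 20 of the 47, against 16.5% of all tested genes. The median log2 fold change was -0.02, beside 0.06 for the first 6 and 0.00 for all tested genes, of which 50.5% lay above 0.

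**Figure D3:**
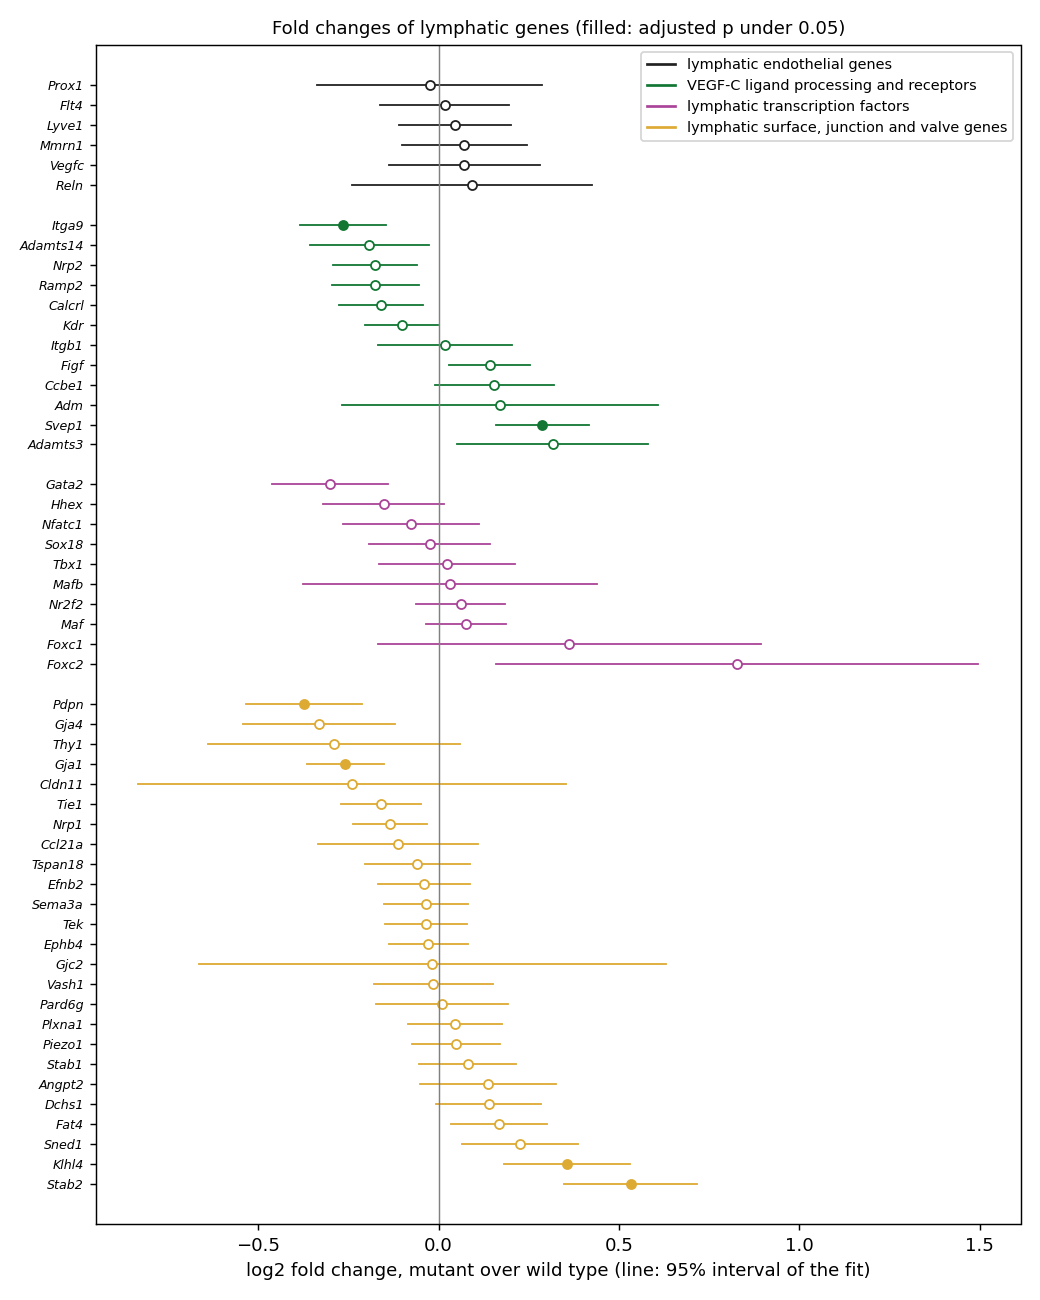
Log2 fold change, mutant over wild type, of the 6 lymphatic endothelial genes and the 47 genes of 3 lymphatic lists, with the 95% interval of the edgeR fit. Filled points have an adjusted p under 0.05: 0 of the first 6, and 3 lower (Itga9, Pdpn, Gja1) and 3 higher (Svep1, Stab2, Klhl4) of the rest.

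Markers of other cells that can hold these transcripts were measured beside them. For Lyve1, 13 macrophage genes were tested and 0 passed, with 2 at an unadjusted p under 0.05 (edgeR), where 16.5% of all tested genes were. The list summed to 417 to 429 CPM in wild-type and 417 to 438 CPM in mutant lungs. The 2 genes were Csf1r, at 36.4 and 35.3 CPM in wild-type and 30.4 and 31.3 CPM in mutant lungs (log2 fold change -0.22), and C1qa (-0.27). Both were lower in both mutant lungs, as 24.3% of all tested genes were. Adgre1 overlapped at 8.95 to 11.3 CPM, as did C1qb (log2 fold change -0.08) and C1qc (0.02). Of the 13 genes, 7 had a log2 fold change below 0 and 6 above. For Mmrn1, 12 genes of megakaryocytes and platelets had a median log2 fold change of -0.32 and sums of 36.3 to 38.0 against 30.3 to 34.3 CPM. None passed, and 2 had an unadjusted p under 0.05 (edgeR), where 16.5% of all tested genes did. Of these 12 genes, 10 had a log2 fold change below 0, and the 2 at an unadjusted p under 0.05 were Tubb1 (-0.65) and Nfe2 (-0.50). Both mutant lungs were below both wild-type lungs in 6 of the 12, these 2 included, where 24.3% of all tested genes were. Beside them Mmrn1 had a log2 fold change of 0.07, and their part in its level was not tested.

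Of the cells that share Prox1, heart muscle had called genes. In its list, 5 of 14 tested genes fell and none rose, beside 1.34% and 0.298% of all tested genes, with a median of -0.53, and the list summed to 313 to 382 CPM in wild-type and 233 to 258 CPM in mutant lungs. The genes that fell were Myh6 (log2 fold change -0.73, adjusted p = 0.0117), Myl7 (-0.65, 0.0127), Myl4 (-0.59, 0.0402), Tnnt2 (-0.57, 0.0275) and Ryr2 (-0.44, 0.0156), in the edgeR test, genes of the contractile apparatus and, for Ryr2, of calcium release. Without wt_2, the lung with the highest sum, Myl4 and Tnnt2 did not pass (adjusted p = 0.247 and 0.189), and the list had 3 calls, while without wt_1 it had 11 and without mut_1 it had 8. Prox1 had a log2 fold change of -0.02 beside it, and the share of Prox1 reads from heart muscle was not tested. The neuroendocrine list had 0 of 14 passing (1 at an unadjusted p under 0.05) and sums of 36.4 to 41.3 against 36.0 to 36.9 CPM. The hepatocyte list, with 4 tested genes and none at an unadjusted p under 0.05, summed to at most 10.6 CPM in any lung, and Hnf4a had at most 0.175 CPM. Mesothelium, the lung's outer lining, had sums of 595 to 627 against 445 to 524 CPM. In edgeR, 2 of its 8 tested genes fell (1.34% of all did), Msln (log2 fold change -0.53, adjusted p = 0.0196) and Krt19 (-0.35, 0.0196). Msln did not pass with a robust fit (0.127) or DESeq2 (0.133). In the sums, Msln held 207 and 224 against 129 and 169 CPM, and Krt19 237 and 238 against 173 and 200 CPM. Of the 8 genes, 4 had a log2 fold change below 0 and 4 above, with a median of -0.04. Both mutant lungs were below both wild-type lungs in 3 and above them in 2, where 24.3% and 23.9% of all tested genes were.

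Across the 4 lungs the 6 genes did not share one pattern. The measure of likeness was the distance between log2 CPM values centred on the mean of the 4 lungs, over 12743 other genes with a mean of at least 100 reads, and with 4 lungs it is a description. The closest pair among the 6 was Flt4 and Mmrn1, at 0.0671, both highest in mut_1, and 0.107 separated Lyve1 and Vegfc, both highest in mut_2. Prox1 and Reln were nearest to Flt4, at 0.195 and 0.197, and were also highest in mut_1. Ranked among all genes, the nearest lymphatic endothelial gene stood between place 264 (for Prox1) and place 1423 (for Vegfc). For 5 of the 6, the 2 genes nearest to each were Champ1 and Capza1 for Vegfc, Mtbp and Med25 for Flt4, Pdcd10 and Lias for Lyve1, Cdc14a and Trim68 for Mmrn1, and Gm4117 and Thap2 for Reln. Their distances were 0.00719 for Pdcd10, the smallest, up to 0.0407 for Thap2.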

How the data were processed

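The authors deposited raw read counts per gene for the 4 lungs. Their methods give Trizol RNA, TruSeq Stranded mRNA libraries and single 75-base reads, trimmed before alignment, with reads in more than one gene or place left out. The submitters' processing notes name STAR 2.4.0a, featureCounts 1.5.1, DESeq2 1.14.1 and GRCm38 (mm10), without roles. From the counts, genes with a mean of at least 5 reads (18763 of 45706) were tested with edgeR 4.0.16 (TMM, quasi-likelihood test, no covariate, R 4.3.3), mutant against wild type, with Benjamini-Hochberg adjustment over all of them and a threshold of 0.05. CPM used TMM library sizes. The biological coefficient of variation was 0.0715. Positions and exon lengths came from GENCODE M21 (45143 genes matched) and upstream bases from RefSeq. The fit was tested on simulated data. Alternatives included DESeq2 1.42.0. The 6 genes and the lists were chosen with earlier results of these data known. Named were the 6, each listed gene past the threshold, a set of pathway genes whatever their values and the nearest neighbours. Sftpc, Nkx2-1 and single markers (Adgre1, Csf1r, C1qa, C1qb, C1qc, Tubb1, Nfe2, Hnf4a) were added after their values were seen. So were Adm, Calcrl, Ramp2, Tek, Tie1 and Maf. The exact permutation test cannot go below p = 0.333 with 2 against 2. The nearest neighbours of Prox1 are not reported here.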

Additional observations from a re-analysis of the deposited data

How the results depend on the processing

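Over 14 alternative settings the 6 lymphatic endothelial genes gave 84 fold changes, 81 with an adjusted p (DESeq2 gave none for Prox1, Vegfc and Reln), and 0 passed. Of the 84, 75 kept their sign. With counts thinned to 1 depth the value for Prox1 was 0.0001 on the log2 scale. Leaving out 1 lung at a time, Prox1 ranged from -0.2422 to 0.1806 (above 0 without wt_2, at 0.0154, and without mut_2), Lyve1 from -0.0454 to 0.1422 (below 0 without wt_2, at -0.0441, and without mut_2), Flt4 from -0.0767 to 0.111 (below 0 without wt_2, at -0.0044, and without mut_1) and Reln from -0.0751 to 0.2539 (below 0 without wt_2, at -0.0223, and without mut_1). The sign also turned for Nr2f2 (-0.0014 to 0.1259, below 0 without wt_1) and Sox18 (-0.0886 to 0.0396, above 0 without wt_2).

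Of all genes, 252 fell and 56 rose. With no filter on low counts these were 688 and 474, and the transcription factor, pan-endothelial and cardiac lists had 1, 5 and 10 calls. With library totals 234 fell and 112 rose. Genes that rose numbered 135 with a robust fit, 92 with DESeq2 and 90 without chromosomes X, Y and MT, and the mesothelium list had 1 call under the robust fit and under DESeq2. With the replicate number as a block, 466 fell and 244 rose, with 1 call in the transcription factor list (Gata2) and 4 in the pan-endothelial list. The deviations of same-numbered lungs correlated at -0.297, and at 0.0114 without chromosomes X and Y. These values cannot tell whether same-numbered lungs shared a litter or a batch. A crossed block, chosen after seeing the data, gave 320 that fell, 95 that rose and 9 cardiac calls. The cause of these moves was not tested.

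Leaving out 1 lung at a time, with the lone lung assumed to vary like the others, gave 175 to 875 genes that fell and 31 to 768 that rose, the most without mut_2. Calls were 1 to 3 in the VEGF-C list, 0 to 1 among transcription factors, 1 to 6 among surface genes, 0 to 5 in the pan-endothelial list, 3 to 11 in the cardiac list and 0 to 1 in the neuroendocrine list. The macrophage, megakaryocyte and hepatocyte lists had no call under any of the 14. With 2 lungs per genotype and 118 to 284 reads for Prox1 and Reln, the 95% intervals allow folds from 0.791 to 1.22 and from 0.846 to 1.34. Changes within these ranges are therefore not excluded. The smallest change that the test could call at this depth and n was not measured, and it may lie outside these ranges.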
